A study of Mus musculus with 8 samples.

Results

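The peptidylarginine deiminases are the enzymes that convert arginine within proteins to citrulline. All 5 mouse genes of the family, Padi1, Padi2, Padi3, Padi4 and Padi6, are listed among the 24963 genes of the expression table and were taken by symbol. The family was selected on these data, because Padi1 and Padi2 were higher in the mutant uteri, so the difference between the genotypes in any of the 5 genes is given as a description without a test. The other genes named below were tested, except where a gene overlaps a member or was picked for its likeness to one. Tests were run on the 14323 genes whose mean over all libraries reached 0.5 FPKM. Of the 5 members, 3 (Padi1, Padi2 and Padi4) did so, and Padi3 and Padi6 did not.

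RNA-seq was performed on whole uterine tissue from 8 mice of the C57B6/J strain, 4 Nr2f2 f/f and 4 Nr2f2 d/d, collected at gestation day 3.5 (GD3.5), with 1 library per mouse. Both groups were homozygous for the floxed allele of Nr2f2, which encodes the orphan nuclear receptor NR2F2 (COUP-TFII). Nr2f2 f/f mice carried no Cre and are called WT in the sample labels, and Nr2f2 d/d mice also carried 1 Pgr allele with Cre knocked in, so that recombination takes place in cells that express, or have expressed, the progesterone receptor. All females were mated to vasectomized males, untreated, and 8 weeks old by the labels, or 2 to 3 months old by the study's methods. A control group with the Cre allele but without the floxed gene is not part of these data, so the effect of the Cre knock-in and that of the loss of Nr2f2 cannot be told apart.

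Protein arginine deiminases depend on calcium and remove the positive charge of the arginine side chain, which alters how keratins, filaggrin, histones and matrix proteins fold and bind. PADI1 and PADI3 are known from the epidermis and hair follicle, PADI2 is widespread and can citrullinate histone H3 at estrogen receptor target genes, PADI4 acts in the nuclei of neutrophils during the release of extracellular traps, and PADI6 is a structural protein of the oocyte and early embryo. In the rodent uterus, deiminase activity is known to follow the estrous cycle and to respond to estrogen, mainly in the epithelium.

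The 5 genes stand next to each other on chromosome 4 within 225 kb (GRCm38, GENCODE vM21). In the order of the chromosome they are Padi6 (chr4:140727355-140742643), Padi4 (chr4:140745865-140774236), Padi3 (chr4:140785365-140810648) and Padi1 (chr4:140812983-140845778), all on the minus strand, and Padi2 (chr4:140906344-140952586) on the plus strand. Padi1 and Padi2 therefore point away from each other, with their starts 60.6 kb apart, while the start of Padi3 lies 2.34 kb beyond the end of Padi1.

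The promoters of Padi1 and Padi2 are shown because these genes had the largest differences between the genotypes in the family and are read from the same interval in opposite directions. Each sequence is the 250 bases before the start of the gene in RefSeq (GRCm38.p6), 5′ to 3′ on the gene's own strand (Padi1, chr4:140845779-140846028, minus strand; Padi2, chr4:140906110-140906359, plus strand), with GGGCGG, the Sp1 box, in capitals on either strand.
Padi1: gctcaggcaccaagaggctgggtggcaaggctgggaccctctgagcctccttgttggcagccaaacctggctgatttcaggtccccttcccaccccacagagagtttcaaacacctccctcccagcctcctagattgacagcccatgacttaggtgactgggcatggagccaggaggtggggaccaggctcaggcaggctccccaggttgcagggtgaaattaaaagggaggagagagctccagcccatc
Padi2: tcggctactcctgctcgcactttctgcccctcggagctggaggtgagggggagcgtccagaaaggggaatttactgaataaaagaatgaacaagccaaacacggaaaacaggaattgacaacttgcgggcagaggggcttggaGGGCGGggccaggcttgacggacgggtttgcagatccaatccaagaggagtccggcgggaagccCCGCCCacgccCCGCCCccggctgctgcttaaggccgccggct

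The pair of promoters differed in composition. Padi2 had 17 CpG dinucleotides in this window and Padi1 had 0, against a median of 6 over all 32851 promoters in the table, although GC content was alike at 61.6% in Padi2 and 60% in Padi1. The windows of Padi3, Padi4 and Padi6 held 3, 3 and 1 CpG. The Padi2 promoter held the letters GGGCGG at 3 places, starting 107, 43 and 32 bases before the start, and those of Padi3 and Padi6 held them at 1 place each. The same letters occur on either strand in 32.7% of all promoters. The letters TATAAA were found in the promoter of Padi4 alone, 31 bases before its start, and occur on either strand in 12.4% of all promoters. The letters GGTCA, the core of the nuclear receptor half-site that NR2F2 and the estrogen receptors bind, were in none of the 5 windows on either strand, and they occur in 35.2% of all promoters. The longer half-site AGGTCA and the palindrome GGTCANNNTGACC both contain these letters, were likewise in none of the 5 windows, and occur in 14.0% and 0.0639% of promoters. These matches are letters in a window of 250 bases and say nothing about binding.

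Levels are given as FPKM, the number of fragments counted for each gene relative to gene length and library total, as the authors deposited them. Depth was 61500000 to 92700000 fragments per library, the totals at which 96.8% to 98.5% of the values of short, unspliced genes were whole fragments within 0.1. Nr2f2 itself was at 25.3, 21.8, 25.7 and 23.5 FPKM in the 4 control (Nr2f2 f/f) uteri, given in the order of their replicate numbers, and at 9.66, 9.42, 6.90 and 9.74 FPKM in the 4 mutant (Nr2f2 d/d) uteri, in the same order. It was lower in all 4 mutant uteri, with a log2 difference of -1.39 (SE 0.118, adjusted p = 0.00549, limma, n = 4 per group), and the level that remained was similar in replicates 1, 2 and 4 and lowest in replicate 3. In whole tissue, fewer cells of a type and less RNA per cell cannot be told apart, and this holds for every value that follows.

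Padi1, the deiminase of the epidermis and of the uterine epithelium, was at 7.41, 5.01, 8.97 and 3.50 FPKM in control replicates 1 to 4. In mutant replicates 1 to 4 it was at 31.5, 20.2, 67.6 and 23.7 FPKM. The groups did not overlap, the lowest mutant uterus being 2.26 times the highest control. Replicate 3 was the highest in both groups, although the labels state no link between a control and a mutant of the same number. The mean was 6.22 ± 2.44 FPKM in controls and 35.7 ± 21.7 FPKM in mutants (SD, n = 4), a ratio of 5.75 and a difference of 2.34 in log2(FPKM + 0.5). The spread among mutant uteri was wide, with a coefficient of variation of 60.8% against 39.2% in the controls, and Nr2f2 d/d replicate 3 stood well above the other mutant uteri. Without that library the log2 difference was 1.98. The values rest on 807 to 2623 fragments in the controls and 5422 to 23512 in the mutant uteri, so counting error is small beside the spread between mice.

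Padi2, the most widely expressed deiminase, was at 7.23, 7.50, 8.31 and 12.1 FPKM in the 4 control uteri. The mutant uteri had 30.2, 26.7, 32.3 and 42.6 FPKM, again with no overlap and with the lowest mutant 2.22 times the highest control. The mean was 8.77 ± 2.23 FPKM in controls and 33.0 ± 6.81 FPKM in mutants (SD, n = 4), a ratio of 3.76 and a log2 difference of 1.86. Padi2 varied less between mice than Padi1, with a coefficient of variation of 25.5% in the controls and 20.7% in the mutants. Its highest library was replicate 4 in each group, not replicate 3, so the mutant uterus with the most Padi1 was not the one with the most Padi2. The log2 difference lay between 1.73 and 2.01 when each library was left out in turn.

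Padi4, the deiminase of neutrophil nuclei, was at 4.78, 4.23, 8.60 and 3.91 FPKM in the controls and at 13.1, 6.28, 17.2 and 3.47 FPKM in the mutants. The groups overlapped: Nr2f2 d/d replicate 4 was the lowest of all 8 uteri, and Nr2f2 d/d replicate 2 was below Nr2f2 f/f replicate 3. The mean was 5.38 ± 2.18 FPKM in controls and 10.01 ± 6.26 FPKM in mutants (SD, n = 4), with a log2 difference of 0.67 that moved between 0.35 and 1.06 as single libraries were left out. It was 0.35 without Nr2f2 d/d replicate 3 and 1.06 without Nr2f2 d/d replicate 4.

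Padi3, the deiminase of the hair follicle, was low, under 0.5 FPKM in every uterus and under 3 fragments in Nr2f2 f/f replicate 2. It was at 0.026, 0.011, 0.067 and 0.064 FPKM in the controls, which is about 6, 2, 18 and 14 fragments. In the mutant uteri it was at 0.111, 0.078, 0.341 and 0.176 FPKM, or about 24, 19, 109 and 55 fragments. Fragment numbers of the members were computed with GENCODE vM21 exon lengths. The annotation behind the FPKM is not given, so these numbers are approximate. Each mutant uterus was above each control, and as for Padi1 and Padi4 the highest library was replicate 3 in both groups. The ratio of the means was 4.20, while the log2 difference was only 0.31 because the added 0.5 FPKM exceeds all of the values; with 0.1 FPKM added it was 0.89.

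Padi6, the oocyte member, was listed at 0 in all 4 controls and in Nr2f2 d/d replicate 1. The other mutant uteri had 0.006, 0.009 and 0.005 FPKM, which corresponds to 1, 2 and 1 fragments. All values were under the level of 3 fragments, 0.0128 to 0.0193 FPKM for this gene, so no fold change is given and Padi6 mRNA was not detectable at this depth.

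**Figure D1:**
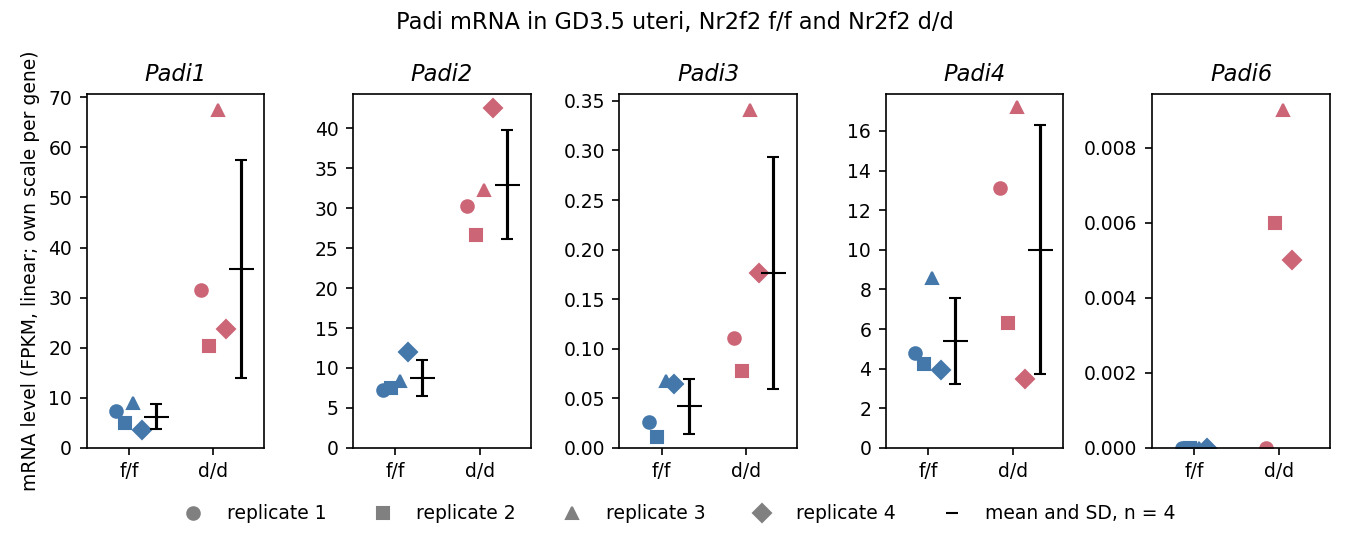
Levels of the 5 Padi genes (FPKM, vertical axis, with its own scale for each gene) in 4 Nr2f2 f/f (blue) and 4 Nr2f2 d/d (red) uteri. Symbols mark the replicate number, and black bars give the mean and SD except for Padi6. The Nr2f2 d/d points lie above all Nr2f2 f/f points for Padi1, Padi2 and Padi3, while the groups overlap for Padi4, and Padi6 stays at or below 0.009 FPKM.

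Of the 3 members that reached the level for testing, 2 had groups that did not overlap, with the mutants higher. Over all tested genes 5.49% were separated in that direction, and nothing is read from the members' count, since Padi1 and Padi2 were chosen for it. Among all tested genes, 25 had a larger log2 difference than Padi1 and 50 a larger one than Padi2. By adjusted p under 0.05 in limma, 1.09% of the tested genes were higher in Nr2f2 d/d and 1.53% lower, and by an unadjusted p under 0.05 with a fold change of at least 1.4, which is the threshold of the study, 4.7% were higher and 4.1% lower. An unadjusted p alone was under 0.05 for 21.2% of the tested genes, and 9.91% were lower in Nr2f2 d/d without overlap. These shares are the background for the lists of genes described below. The excess of lower genes at the adjusted threshold (219 against 156 higher) did not hold under median-ratio scaling, where 191 of 376 were higher, and without Nr2f2 d/d replicate 2 the number past that threshold was 42, of which 24 were higher.

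Because FPKM are scaled to gene length, the members can be set beside each other within a library. In the controls Padi2 had the highest mean, followed by Padi1 and Padi4, but their ranges overlapped: Padi2 exceeded Padi1 in 2 of 4 control uteri, and Padi1 exceeded Padi4 in 3 of 4. In the mutants Padi1 and Padi2 also overlapped, each being the higher in 2 of 4 uteri, while Padi4 was below Padi2 in all 4 and Padi3 was far below Padi4. Padi3 was above Padi6 in every library of both groups. Among the tested genes of a library, Padi1 stood between the 27.4 and 52.4 percentile of the levels in controls and between the 76.9 and 94.3 percentile in mutants, and Padi2 moved from 45.5 to 61.8 up to 83.3 to 90.5.

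The summed level of the family was 19.4, 16.8, 26.0 and 19.5 FPKM in control replicates 1 to 4 and 74.9, 53.3, 117 and 69.9 FPKM in mutant replicates 1 to 4. The shares of the members in this sum depend on Padi1 and Padi2, for which the family was chosen, and are a description. Padi4 made up 20.0% to 33.1% of the family in the controls and 4.97% to 17.5% in the mutants. Padi1 made up 17.9% to 38.1% and 33.9% to 57.5%, and Padi2 32.0% to 61.7% and 27.5% to 60.9%, so that the share of Padi4 was lower in every mutant than in every control while the shares of Padi1 and Padi2 overlapped between the groups. Padi1 was 0.894 to 1.55 times Padi4 in the controls and 2.40 to 6.82 times Padi4 in the mutants.

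**Figure D2:**
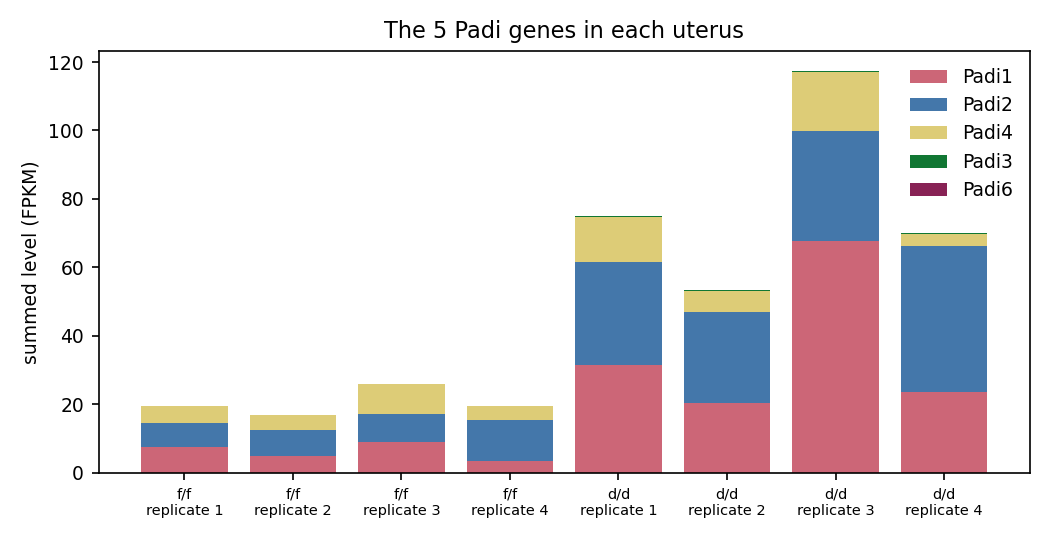
Summed level of the 5 Padi genes in each uterus (FPKM, linear axis from 0), stacked by gene, with Padi3 and Padi6 too low to be seen. The 4 Nr2f2 d/d bars reach 53.3 to 117 FPKM and the 4 Nr2f2 f/f bars 16.8 to 26.0 FPKM, and the Padi4 segment is the smallest share in Nr2f2 d/d replicate 4.

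The annotation places an unnamed gene opposite each of Padi1 and Padi2. Gm13032, on the plus strand, shares 32.0% of the exon bases of Padi1 (1200 of 3754), and Gm13031, on the minus strand, shares 2.97% of those of Padi2 (149 of 5013). Whether fragments were counted by strand is not given in the sources used here, so fragments from the shared bases cannot be assigned to one gene, and the level of Padi1 carries that uncertainty. Gm13032 was at 0.187 to 0.292 FPKM in the controls and at 0.644 to 1.49 FPKM in the mutants, higher in the same direction as Padi1 and with replicate 3 the highest mutant. Gm13031 was at 0.086 to 0.153 FPKM in the controls and 0.167 to 0.333 FPKM in the mutants. Exons of Padi3, Padi4 and Padi6 share no base with another annotated gene.

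Around the cluster, 20 other protein-coding genes were listed within 500 kb of either end, and 15 of them were tested. None passed an adjusted p of 0.05 in limma, in either direction, and 3 passed the threshold of the study, all higher (Arhgef10l, Mfap2 and Hspb7, with log2 differences of 0.53, 0.74 and 0.79, adjusted p = 0.126, 0.109 and 0.103), against 4.7% of all tested genes. An unadjusted p was under 0.05 for 6 of the 15, against 21.2% of all tested genes. Their median log2 difference was 0.003, beside -0.02 over all tested genes, and their range was -0.42 to 0.79. The nearest tested gene beyond Padi6 was Rcc2, a regulator of chromosome condensation, at 44.8 ± 7.08 FPKM in controls and 45.1 ± 10.3 FPKM in mutants (SD, n = 4, adjusted p = 0.999). Beyond Padi2 it was Sdhb, a subunit of succinate dehydrogenase, at 60.7 ± 6.36 and 71.4 ± 4.20 FPKM, a log2 difference of 0.24 (SE 0.0904, adjusted p = 0.192). Padi1, Padi2 and Padi4 had log2 differences of 2.34, 1.86 and 0.67. Padi1 and Padi2 were chosen for being higher in the mutants and the neighbours were not, so their order against the neighbours is a description only.

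**Figure D3:**
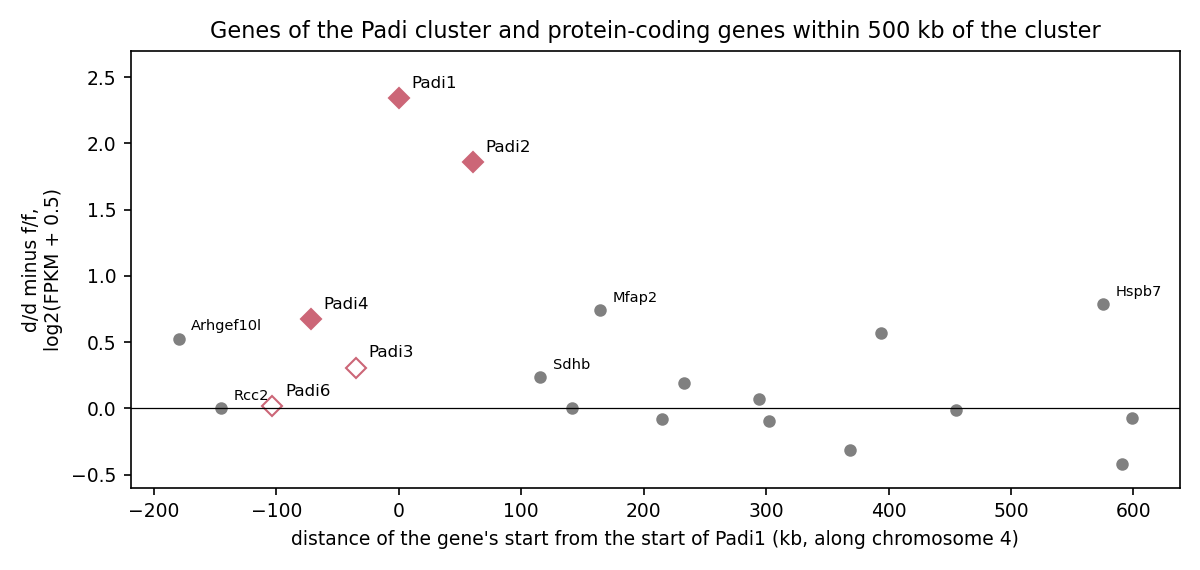
Log2 difference between the genotypes (vertical axis) by the distance of each gene's start from the start of Padi1 (horizontal axis, kb). Red diamonds are the Padi genes, open where the mean level was under 0.5 FPKM, and grey points are the 15 tested protein-coding neighbours. Padi1 is at 2.34 and Padi2 at 1.86, both chosen for being higher in the mutants, and the neighbours, not chosen by level, lie between -0.42 and 0.79.

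Several cell types of the uterus are possible sources of deiminase mRNA, and their markers were set beside the members. The summed level of 10 epithelial genes, in which Wfdc2 and Cldn3 are the most abundant, was 1128 to 1458 FPKM in controls and 1337 to 1600 FPKM in mutants. Of the 10, 0 passed an adjusted p of 0.05 and 4 an unadjusted one, against 21.2% of all tested genes. Among the 4 was Krt19, a keratin of simple epithelia, at 38.9 to 93.8 FPKM in controls and 126 to 206 FPKM in mutants (log2 difference 1.396, adjusted p = 0.0559). Epcam, the epithelial adhesion molecule, had a log2 difference of 0.06. Per 1000 FPKM of these epithelial genes, Padi1 was at 2.90 to 7.95 in the controls and 12.7 to 50.5 in the mutants, and Padi2 at 5.15 to 9.99 and 16.8 to 27.0. Padi4 was at 2.90 to 7.62 and 2.21 to 12.9 on the same scale. The groups overlapped for Padi4 and not for Padi1 and Padi2, which were chosen on these levels, and the part of the epithelium in the differences was not tested.

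The sum of 14 neutrophil markers was 4.77 to 23.6 FPKM in the controls and 20.5 to 43.7 FPKM in the mutants. Of its 5 tested members 0 passed an adjusted p of 0.05 and 3 an unadjusted one, against 21.2% of all tested genes. Of the 3, S100a8 and S100a9, calcium-binding proteins of neutrophil cytosol, had log2 differences of 2.16 and 2.25 (adjusted p = 0.0689 and 0.0912). The other was Retnlg, a secreted protein of neutrophils, with a difference in the opposite direction, -1.32 (adjusted p = 0.131). The granule genes Elane, Ngp and Mmp8 were below 0.1 FPKM in all 8 uteri. The part of neutrophils in the Padi4 level was not tested. The 9 macrophage genes summed to 264 to 516 FPKM in the controls and 408 to 702 FPKM in the mutants, and of the 9 tested 0 passed an adjusted p of 0.05 and 1 an unadjusted one. The 11 oocyte genes summed to 11.5 to 13.6 FPKM in the controls and 13.2 to 15.8 FPKM in the mutants, most of it Zbed3 (8.67 to 12.3 FPKM over the 8 uteri), with Tle6 at 0.995 to 2.37 FPKM, Ooep at 0.605 to 1.39 FPKM and Gdf9 at 0.325 to 0.810 FPKM. Of the same list, Nlrp5 and Oosp1 and the egg coat genes Zp1, Zp2 and Zp3 were below 0.1 FPKM in every library. Of its 4 tested genes, 0 passed an adjusted p of 0.05 and 1, Tle6, an unadjusted one (log2 difference 0.43, adjusted p = 0.218).

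Of the 7 stromal genes 2 were higher at an adjusted p of 0.05, against 1.09% of all tested genes. These were Col1a2 and Dcn, calls that held in 2 and 4 of the 8 fits with a library left out. At the study's threshold 5 of 7 were higher, against 4.7% of all tested genes. The 7 genes summed to 1272 to 1617 FPKM in the controls and 2157 to 4627 FPKM in the mutants. Fibrillar collagens and Dcn make up most of this sum, and the stromal receptor gene Pdgfra and Hoxa11 had log2 differences of -0.20 and -0.18 (adjusted p = 0.577 and 0.459). Of the 6 gland genes, 5 had a negative log2 difference and 1 a positive one. At the study's threshold 2 were lower, against 4.1% of all tested genes, and 0 higher. The 6 genes summed to 140 to 3290 FPKM in the controls and 28.6 to 83.1 FPKM in the mutants. Spink1, the only one past an adjusted p of 0.05 (log2 difference -5.93, adjusted p = 0.0292, a call that held in 2 of the 8 fits with a library left out), Prss28 and Prss29 carry this sum, above all in Nr2f2 f/f replicate 2, while Foxa2, the transcription factor of gland cells, and Cxcl15 had log2 differences of -0.02 and 1.02 (adjusted p = 0.971 and 0.469). The 5 endothelial genes summed to 148 to 202 FPKM in the controls and 83.0 to 108 FPKM in the mutants, and all 5 were lower without overlap (9.91% of all tested genes) and past the study's threshold (4.1%), 3 of them past an adjusted p of 0.05. The smooth muscle sum was 750 to 1215 FPKM and 686 to 1682 FPKM, and 0 of its 6 genes passed either an adjusted or an unadjusted p of 0.05. Skeletal muscle genes summed to 13.0 to 33.8 and 22.7 to 45.4 FPKM, and 3 of the 7 were tested, with 0 past an adjusted p of 0.05 and 1 higher at the study's threshold. That was Tnnt3, a fast troponin T, at 1.61 to 3.50 FPKM in the controls and 4.10 to 6.33 FPKM in the mutants without overlap (log2 difference 0.91, adjusted p = 0.0726). Acta1, skeletal actin, averaged 20.1 and 24.7 FPKM, and the myosin genes Myh1, Myh2 and Myh4 were below 0.1 FPKM. Genes of ovary and oviduct summed to 14.4 to 32.0 and 8.84 to 57.9 FPKM. The part of these shifts in the levels of Padi1 and Padi2 was not tested.

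Enzymes that act on arginine outside the family, the protein arginine methyltransferases and relatives of the deiminase fold, were counted next. Of 13 genes 12 were tested, and their median log2 difference was -0.15 beside -0.02 over all tested genes. Of the 12, 0 passed an adjusted p of 0.05 in limma and 2 had an unadjusted p under 0.05, against 21.2% of all tested genes. The 2 were Prmt3, a methyltransferase of ribosomal protein, and Ddah1, which breaks down methylated arginine. Prmt3 was at 14.0 ± 1.13 FPKM in controls and 10.8 ± 0.975 FPKM in mutants (log2 difference -0.36, SE 0.0889, adjusted p = 0.0721), and Ddah1 at 5.42 ± 1.73 and 3.02 ± 0.549 FPKM (-0.71, SE 0.248, adjusted p = 0.164). Next was Gatm, a fold relative that makes guanidinoacetate, at 20.2 ± 6.04 and 13.9 ± 2.24 FPKM (-0.49, adjusted p = 0.246).

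Deiminases act on keratins, histones, chemokines and matrix proteins, and the genes of such substrates were counted as well. Of 32 proteins known to be citrullinated, 31 were listed and 24 tested, with 1 higher and 1 lower at an adjusted p of 0.05. At the threshold of the study 4 were higher and 3 lower, against 4.7% and 4.1% of all tested genes, and 10 of the 24 had an unadjusted p under 0.05, against 21.2%. Krt5, a keratin of basal cells described below, is among the 4 and the 10 but reached the level for testing only through the mutants. The median log2 difference was -0.02 with it and -0.05 without it, beside -0.02 over all genes. The gene that rose was Krt8, the keratin of simple epithelia, from 114 ± 6.31 to 192 ± 16.2 FPKM (log2 difference 0.74, SE 0.0844, adjusted p = 0.00829). The gene that fell was Fn1, the matrix protein fibronectin, from 93.9 ± 12.8 to 32.6 ± 6.21 FPKM (-1.52, SE 0.151, adjusted p = 0.00703). Both calls held when any 1 of the 8 libraries was left out. Gfap, an intermediate filament protein, was at 0.562 to 0.665 FPKM in the controls and 0.925 to 2.04 FPKM in the mutants (0.80, adjusted p = 0.0516). Mbp, myelin basic protein, had a log2 difference of 0.61, and Vim (vimentin) and Cxcl12, a chemokine, had differences of -0.66 and -0.73 (adjusted p = 0.133, 0.113 and 0.177). The histone H3 genes H3f3a and H3f3b had log2 differences of -0.05 and 0.34 (adjusted p = 0.854 and 0.248).

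In the epidermis PADI1 and PADI3 act on proteins of the cornified envelope, and 9 of the 24 listed genes of that programme, from a list of 25, reached the level for testing. At an adjusted p of 0.05, 1 was higher and 0 were lower, but Krt15, Krt5 and Sprr1a reached that level only through the mutants, so they are given as values without a test, and neither the count nor the list's median supports a direction. The other 6 tested genes did not pass. Lor (loricrin), Tchh, Ppl, Evpl, Krt10 and Tgm1 had log2 differences of -0.40, 0.07, 0.16, 0.33, -0.39 and 0.40, with adjusted p-values of 0.133 to 0.758. Flg2, Hrnr, Tgm3, Dsg1a, Sprr1b and Sprr3 were below 0.1 FPKM in all 8 libraries. The call was for Krt15, a keratin of basal cells, at 0.009, 0, 0.358 and 0.104 FPKM in the controls and 7.78, 11.2, 10.9 and 0.704 FPKM in the mutants. Krt5, its partner in basal epithelium, was at no more than 0.029 FPKM in the controls and at 4.81, 5.64, 4.86 and 0.322 FPKM in the mutants. Nr2f2 d/d replicate 4 was the lowest mutant for both keratins. Sprr1a, a cornified envelope precursor, was at 0.164 to 0.941 FPKM in the controls and at 4.57, 4.42, 12.9 and 0.571 FPKM in the mutants. Replicate 4 thus had low levels of Krt15, Krt5, Sprr1a and Padi4 among the mutant uteri, while its Padi1 level of 23.7 FPKM was above that of replicate 2 and its Padi2 level was the highest.

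Since deiminases respond to estrogen in the rodent uterus, estrogen-responsive genes and the steroid receptors were listed as well. Of 16 estrogen-responsive genes 14 were tested, and 2 were higher and 0 lower at an adjusted p of 0.05, with a median log2 difference of 1.25. At the threshold of the study 7 were higher, against 4.7% of all tested genes. In some genes of the list, picked after their values were seen, a pair of libraries stood apart from their groups. Ltf, the estrogen-induced lactotransferrin gene, was at 11.9, 13.6, 407 and 13.9 FPKM in the controls and at 898, 314, 823 and 51.4 FPKM in the mutants. Clca1, Lcn2 and Sprr2b were likewise highest in replicate 3 among the controls (14.8, 145 and 46.9 FPKM) and lowest in replicate 4 among the mutants (0.795, 18.8 and 0.536 FPKM). For Padi1 and Padi4, Nr2f2 f/f replicate 3 was also the highest control, and for Padi4, but not Padi1, Nr2f2 d/d replicate 4 the lowest mutant. The genes that rose were Krt8, given above, and Greb1, an early estrogen receptor target, from 2.96 ± 0.894 to 9.82 ± 4.15 FPKM (1.52, SE 0.311, adjusted p = 0.0470). The call for Greb1 held in 1 of the 8 fits with a library left out, that without Nr2f2 d/d replicate 4 (adjusted p = 0.0446), and the adjusted p reached 0.122 without Nr2f2 f/f replicate 1. Inhbb, the activin beta B subunit, was at 1.498 to 5.05 FPKM in the controls and 6.48 to 21.7 FPKM in the mutants (1.90, adjusted p = 0.0626), and its highest mutant, replicate 3, was also the highest for Padi1. Not all genes of the list shared the pattern of Ltf. Among the controls Inhbb was lowest in replicate 3 (1.498 FPKM) and Greb1 highest in replicate 2 (3.98 FPKM). Among the mutants Krt8 was lowest in replicate 2 (170 FPKM).

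Among 10 steroid receptors and coregulators 9 were tested, with a median log2 difference of -0.09. Of the 9, 0 passed an adjusted p of 0.05 in either direction and 3 an unadjusted one, against 21.2% of all tested genes. Esr1, the uterine estrogen receptor, was at 33.5 ± 2.91 FPKM in controls and 41.8 ± 5.42 FPKM in mutants (0.31, SE 0.105, adjusted p = 0.151). Ncoa1, a receptor coactivator, was at 5.32 ± 0.226 and 4.51 ± 0.0770 FPKM (-0.22, adjusted p = 0.113).

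All 13 progesterone-responsive genes of the list were tested, with 0 higher and 1 lower at an adjusted p of 0.05 and a median log2 difference of -0.40. At the threshold of the study 1 was higher and 4 were lower, against 4.7% and 4.1% of all tested genes, and 5 of the 13 had an unadjusted p under 0.05, against 21.2%. The gene that fell was Hand2, a stromal transcription factor, from 50.9 ± 4.94 to 31.2 ± 5.36 FPKM (-0.71, SE 0.134, adjusted p = 0.0388). This call held in 2 of the 8 fits with a library left out, those without Nr2f2 d/d replicate 3 or 4, with adjusted p-values of 0.0367 to 0.108 over the 8. Calca, the calcitonin gene, was at 2.06 ± 1.28 and 0.579 ± 0.221 FPKM (-1.15, adjusted p = 0.0989), and Zbtb16 (PLZF), a transcription factor, at 9.65 ± 2.87 and 5.28 ± 1.61 FPKM (-0.81, adjusted p = 0.129). Il13ra2, a decoy receptor for interleukin 13, had a log2 difference of -0.64 (adjusted p = 0.211). The member in the other direction was Bmp2, a growth factor of decidualization, at 1.51 ± 0.198 and 2.60 ± 0.925 FPKM (0.58, SE 0.206, adjusted p = 0.165).

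**Figure D4:**
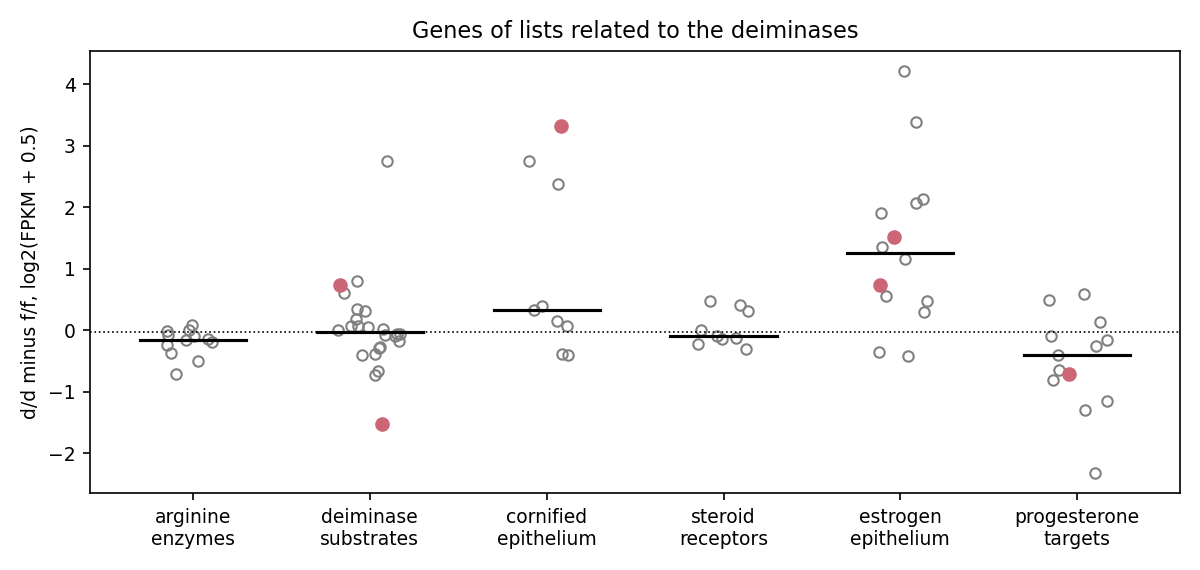
Log2 difference between the genotypes (vertical axis) for each tested gene of 6 lists. Filled red points passed an adjusted p of 0.05 in limma, open grey points did not, black bars are list medians and the dotted line is the median of all tested genes (-0.02). The medians run from -0.40 for the progesterone-responsive genes to 1.25 for the estrogen-responsive genes. Krt15, the filled point among the cornified envelope genes, Krt5 and Sprr1a reached the level for testing only through the mutants. Their points are values without a test, and that list's bar supports no direction. Krt5 is also among the substrates.

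The genes whose profile over the 8 uteri was most like that of Padi1 were found by the mean absolute difference of log2(FPKM + 0.5), after each gene was centred on its own mean, among the 13212 genes that averaged 1 FPKM or more. The 5 nearest to Padi1 were Col1a1, a chain of type I collagen, Gas2, an actin-associated protein, Wfdc18, Fam3b and the peptide Ucn2 (urocortin 2), with mean differences of 0.377, 0.384, 0.386, 0.387 and 0.407 log2 units. Nr2f2 d/d replicate 3 was the highest uterus for Padi1, Col1a1, Gas2, Fam3b and Ucn2, and replicate 1 for Wfdc18. Col1a1 was at 119 to 222 FPKM in the controls and 533, 444, 1141 and 314 FPKM in the mutants, and it is also one of the stromal markers above. Ucn2 was at 3.45 to 3.81 FPKM in the controls and 5.77 to 27.1 FPKM in the mutants.

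The 5 nearest to Padi2 were closer to it and were all different genes. They were Add2, a subunit of the membrane skeleton protein adducin, Qpct, a glutaminyl cyclase, Akr1c13, an aldo-keto reductase, the MHC class I gene H2-M9 and the olfactory receptor gene Olfr78, with mean differences of 0.225, 0.252, 0.284, 0.287 and 0.304. Add2 was at 0.118 to 0.269 FPKM in the controls and 2.28, 1.19, 1.75 and 2.83 FPKM in the mutants, with replicate 4 the highest as for Padi2. Qpct was at 4.44 to 7.64 FPKM in the controls and 16.6 to 22.0 FPKM in the mutants. Fragments of Akr1c13 and H2-M9 can be shared with closely related genes, which makes their values uncertain. Padi2 was number 61 in the order of likeness to Padi1 (0.583), Padi1 was number 262 in the order of likeness to Padi2, and Padi4 was number 398 for Padi1 (0.835) and number 1282 for Padi2 (0.774). These genes were picked for their likeness to the members, so no test of their differences between the genotypes is given here. Col1a1 was also among the tested stromal markers and did not pass an adjusted p of 0.05. Which genes came nearest depended on single libraries: without Nr2f2 d/d replicate 3, or without Nr2f2 d/d replicate 4, 0 of the 5 genes nearest to Padi1 were again among its 5 nearest, while 2 to 4 of those nearest to Padi2 were found again when any library was left out.

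**Figure D5:**
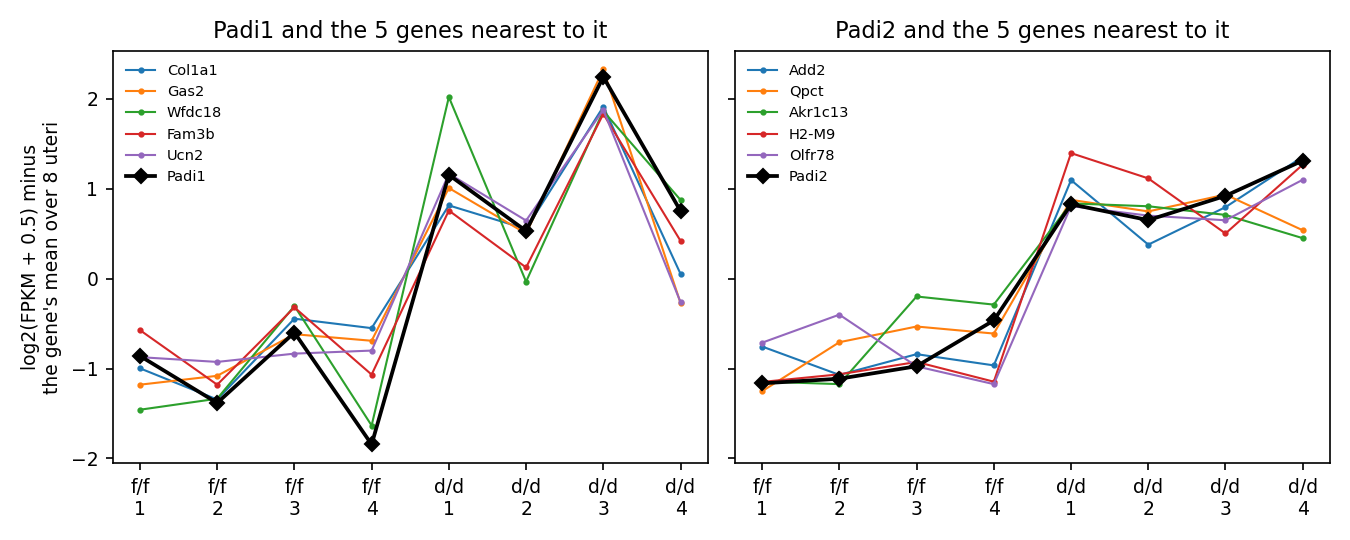
Profiles of Padi1 (left) and Padi2 (right), in black, and of the 5 genes nearest to each, in colours, over the 4 Nr2f2 f/f and 4 Nr2f2 d/d uteri. The vertical axis is log2(FPKM + 0.5) minus the gene's mean over the 8 uteri, and the lines only join values of the same gene. Padi1 peaks in Nr2f2 d/d replicate 3 and Padi2 in Nr2f2 d/d replicate 4.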

How the data were processed

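The authors trimmed 76-bp paired-end reads of TruSeq v2 libraries, aligned them to mm10 and counted fragments per gene. The submitters' processing notes list cutadapt 1.12, STAR 2.5.2b, featureCounts 1.5.0-p1, Subread and Cufflinks 2.0.2. The deposited values are FPKM, scaled by the authors to gene length and library total. The formula, annotation and strand setting are not given in the sources used here. Because FPKM are relative to a library's total, changes in abundant transcripts shift all other genes.

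Groups and replicate numbers follow the sample titles. The table's columns number the mice otherwise: 1, 2, 3 and 5 in Nr2f2 f/f and 1, 3, 4 and 5 in Nr2f2 d/d. Values were taken to log2 after adding 0.5, and the 14323 genes averaging 0.5 FPKM or more were compared in R 4.3.3 by the two-sided moderated test of limma 3.58.1 with its trend option, adjusted by Benjamini-Hochberg over all of them. The model was tested on simulated data. The study's DESeq2 test needs counts, which were not used here. Tables were made with Python 3.11.15 and pandas 2.3.3. Gene models came from GENCODE vM21 and promoters from RefSeq (GRCm38.p6, all 5 members matched). Members, lists and tests were chosen with earlier results of these data known. Named genes are the 5 members, Nr2f2, the 3 tested genes of smallest p in each pathway list, the nearest neighbour on each side and the 5 nearest profiles of Padi1 and Padi2. Of these, 1 gene is not reported here. Arhgef10l, Mfap2, Hspb7, H3f3a, H3f3b, Gm13031, Gm13032, single cell type markers given with values, and Ltf, Clca1, Lcn2, Sprr2b, Lor, Tchh, Mbp, Vim, Cxcl12, Bmp2, Il13ra2, Ppl, Evpl, Krt10 and Tgm1 are outside that rule and were chosen after their values were seen. Each mouse gave 1 library. Floors of 3 fragments cover counting error only. Alternatives were the replicate number as a block, pseudocounts of 0.1 and 1, no filter or one at 1 FPKM, quantile normalization or median-ratio scaling, eBayes made robust or without trend, and each library left out.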

Additional observations from a re-analysis of the deposited data

Results flagged for a closer look

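Among the genes of the naming rule and those added to it, 158 groups of 4 uteri were checked, and in 22 of them 1 library lay far from the other 3, by Dixon's criterion on the gap to its nearest neighbour. Chance alone would set apart about 1 group in 20, and no group of a Padi gene was among them. Many of the genes were named because a library stood apart in them, so the number of such groups says nothing about their frequency. Nr2f2 was at 6.90 FPKM in Nr2f2 d/d replicate 3, below 9.42 to 9.74 in the other mutant uteri, and Padi1, Padi3 and Padi4 had their highest levels in the same uterus. There Ddah1 was at 2.20 FPKM (3.28 to 3.31 in the other mutants), Inhbb at 21.7 FPKM (6.48 to 8.47), Mfap2 at 84.2 FPKM (52.2 to 57.3) and Tgm1 at 2.00 FPKM (0.564 to 0.619). In Nr2f2 d/d replicate 4, Krt5 was at 0.322 FPKM (4.81 to 5.64 in the others), Hoxa11 at 64.9 FPKM (85.4 to 88.4), Krt10 at 9.47 FPKM (2.51 to 2.96), Prss28 at 6.99 FPKM (0 to 0.318) and Prss29 at 41.6 FPKM (0.041 to 1.35), and in Nr2f2 d/d replicate 2 Dcn was at 673 FPKM (713 to 719). Nr2f2 f/f replicate 3, the control with the most Padi1 and Padi4, had Ltf at 407 FPKM (11.9 to 13.9 in the other controls), Lcn2 at 145 FPKM (7.78 to 29.4), Clca1 at 14.8 FPKM (0.102 to 0.216), Sprr2b at 46.9 FPKM (0.046 to 0.349) and Wfdc18 at 1.13 FPKM (0.149 to 0.298). Nr2f2 f/f replicate 2 had Spink1 at 1332 FPKM (115 to 288), Prss28 at 510 FPKM (0.342 to 49.96), Prss29 at 1444 FPKM (2.05 to 244), Inhbb at 5.05 FPKM (1.498 to 1.93) and Mbp at 2.04 FPKM (1.03 to 1.14), and Nr2f2 f/f replicate 1 had Sprr1a at 0.941 FPKM (0.164 to 0.227). The part of these libraries in the levels of the Padi genes was not tested.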

How the results depend on the processing

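No member and no called gene recomputed under the alternatives changed its direction. Differences near 0 changed sign without a call for Rcc2, Epcam, Cldn3, Foxa2, H3f3a and Tchh, and the genes nearest in profile to Padi1 and Padi2 were not recomputed singly. The log2 differences of Padi1, Padi2 and Padi4 moved by less than the spread between replicates under the other pseudocounts, scalings and the block, while with a pseudocount of 0.1 that of Padi3 was 0.89 and that of Padi6 0.070. With each library left out, the differences were 1.98 to 2.56 for Padi1, 1.73 to 2.01 for Padi2, 0.20 to 0.38 for Padi3, 0.35 to 1.06 for Padi4, 0.011 to 0.019 for Padi6 and -1.44 to -1.28 for Nr2f2. The genes past an adjusted p of 0.05 then numbered 42 to 347 and those past the study's threshold 1080 to 1444. The balance of directions turned: at the adjusted threshold 156 of 375 genes were higher, but 191 of 376 with median-ratio scaling and 29 of 56, 24 of 42 and 179 of 326 without Nr2f2 d/d replicates 1, 2 and 4, and at the study's threshold 673 of 1260 were higher, but 635 of 1304 without Nr2f2 f/f replicate 4. The listed genes past an adjusted p of 0.05 were 0 to 1 of the arginine enzymes, 2 to 4 of the substrates, 0 to 3 of the cornified envelope, 1 to 3 of the estrogen-responsive, 0 to 1 of the progesterone-responsive genes and 0 to 0 of the receptors and of the neighbours. The cornified envelope counts can include Krt15, Krt5 and Sprr1a, and the substrate counts Krt5, which reached the level for testing only through the mutants. Calls of these genes are no test, and these counts support no direction. With a pseudocount of 0.1, 4 substrates, Krt5 among them, and 2 cornified envelope genes passed. The latter count was 0 with a pseudocount of 1, quantile normalization, no filter, a mean of at least 1 FPKM or robust eBayes. With no filter, 1 estrogen-responsive gene and 0 progesterone-responsive genes passed. The causes were not tested.

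With the replicate number as a block, 1 gene passed an adjusted p of 0.05, against 375 without, and 0 of the substrates, cornified envelope, estrogen-responsive and progesterone-responsive genes did. The adjusted p of Nr2f2 was 0.0714, at a log2 difference of -1.39 that a block cannot change in a balanced design. Whether the numbers pair the mice is not stated in the labels, and correlations between so few uteri cannot decide it. Deviations of same-numbered uteri from their group means correlated at -0.20, -0.17, 0.045 and -0.040 over the tested genes. No uterus correlated best with its own number. By the numbers of the table's columns, which differ from the titles, the 3 shared numbers gave -0.20, 0.15 and -0.040. Of the other values of single named genes under the alternatives, 967 kept their side of the threshold, 10 gained and 55 lost a call.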
